A study of Mus musculus with 12 samples.

Results

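The genes of the vacuolar proton pump (V-ATPase) and of the cathepsin proteases were followed in splenic B cells at rest and after 3 h of activation, with and without Runx1. Members were chosen by symbol alone, as protein-coding genes whose symbol starts with Atp6v or is Cts followed by a single letter. This gave 40 of the 37991 genes counted, 22 of them V-ATPase subunits (9 of the V0 sector and 13 of the V1 sector) and 18 of them cathepsins. Of these, 28 passed the filter on low counts and were tested, 15 V-ATPase genes and 13 cathepsins, among 13538 tested genes in all.

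The V-ATPase is a rotary pump that acidifies endosomes and lysosomes: its cytosolic V1 sector hydrolyses ATP, and its membrane-bound V0 sector passes the protons. Cathepsins are proteases that mostly work in this acid interior, where they degrade endocytosed protein. In B cells they take part in cutting the invariant chain and the antigens that are presented on MHC class II.

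Resting B cells came from spleens of 8-week-old C57B6 mice and were purified by depleting cells with non-B-cell markers and CD43+ B cells. Cre-only mice carried the CD23-Cre transgene, which is first active at the transitional B cell stage, and Runx1 c-k/o mice (c-k/o below) carried the same transgene with Runx1 alleles whose exon 4 is flanked by loxP sites, so that both genotypes expressed Cre. RNA was sequenced at rest (0 h) and after 3 h in culture with anti-IgM + IL-4, with 3 replicates in each of the 4 groups and 12 libraries in all. The paper calls these biological replicates, but the labels do not say that each came from a separate mouse, so p-values measure the spread between these samples. No library of cells kept 3 h without the stimuli was analysed here, and the effects of culture and of stimulation cannot be told apart.

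Totals ran from 14442251 to 23641552 counts per library, so that 3 counts corresponded to between 0.127 and 0.208 normalized CPM. This unit, used for all levels below, is the count scaled to the library's total, corrected by its TMM factor. Runx1 counts cover all exons and do not check the deletion of exon 4: Runx1 was at 81.8 to 86.7 normalized CPM in resting Cre-only and 95.7 to 103 in resting c-k/o cells, and at 34.9 to 38.5 and 47.3 to 74.5 after 3 h. Among c-k/o libraries, the resting replicate 2 and the 3-h replicate 1 stood apart from their groups. In these 2 libraries, genes with under 1500 bases of exon lay a median 0.29 and 0.28 (log2) above the other 2 replicates, and genes with over 5000 bases lay 0.11 and 0.32 below. Calls between genotypes are therefore also given without these 2 libraries. The summed level of 7 B cell markers was 7985 to 8235 normalized CPM in resting Cre-only and 8927 to 9145 in resting c-k/o cells. The 13 macrophage and monocyte markers summed to 499 to 1089 normalized CPM in the 6 resting libraries and to 27.1 to 112 in the 6 libraries at 3 h, and these values stand beside the cathepsin results below.

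Levels of different genes were compared per kb of exon in resting Cre-only cells. Ctss, which encodes the main protease of invariant chain processing in B cells, had the highest level of the 28 tested genes, at 365 ± 11.8 normalized CPM per kb (SD, n = 3). Ctsz, a carboxypeptidase also called cathepsin X, followed at 137 ± 3.50, and the samples of both genes lay apart from those of the next in order. Ctsh (85.3 ± 2.42), Ctsb (78.8 ± 9.61), Atp6v1f (67.5 ± 3.46), Ctsd (66.2 ± 6.22) and Atp6v0d1 (58.3 ± 3.30) came next, and each overlapped its neighbour in samples, so that their order was not separated. After 3 h, Ctsz had the highest level (263 ± 7.84) and Ctss the next (128 ± 0.758), while Ctsh was the 17th and Ctsb the 14th in order. The V-ATPase genes reached from 67.5 for Atp6v1f, a small subunit of the central stalk, to 10.5 ± 0.596 for Atp6v1a, the catalytic A subunit, with only Atp6v1g2 lower, at 0.946 ± 0.191. Ctsk, Ctsf and Ctsw stayed under 1 normalized CPM per kb.

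**Figure D1:**
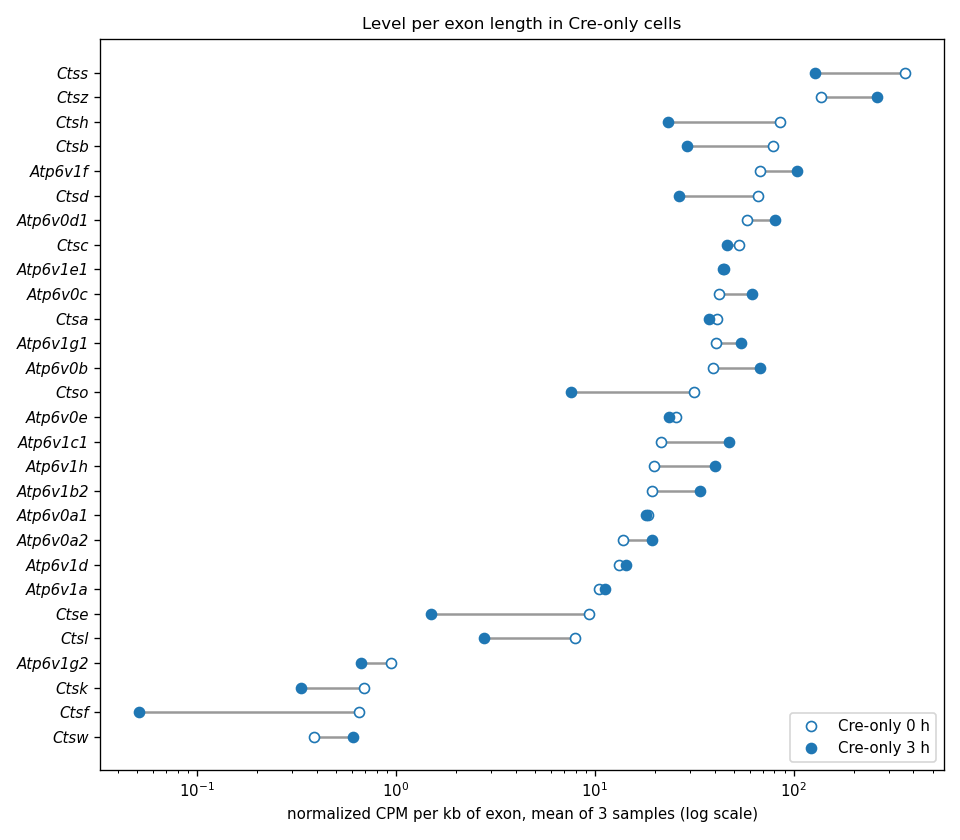
Mean normalized CPM per kb of exon (log scale) of the 28 tested genes in resting (open points) and 3-h (filled points) Cre-only cells, 3 samples each, ordered by the resting level. Ctss is highest at rest (365) and Ctsz at 3 h (263); most cathepsin points move left and most V-ATPase points move right or stay.

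The 12 genes below the filter were isoforms and family members known mostly from other tissues. Atp6v1e2, Ctsj, Ctsm, Ctsq and Ctsr, the last 4 of them known from the placenta, had 0 counts in all 12 libraries. Atp6v0a4, Atp6v0d2, Atp6v0e2, Atp6v1b1, Atp6v1c2, Atp6v1g3 and Ctsg had from 0 to at most 9 counts in any library. The highest of these, Atp6v1c2, shares its locus with the strongly counted gene Pdia6 on the other strand. Where the pump has several isoforms of a subunit, the tested genes were Atp6v0a1, Atp6v0a2, Atp6v0d1, Atp6v0e, Atp6v1b2, Atp6v1c1, Atp6v1e1, Atp6v1g1 and Atp6v1g2, of which Atp6v1g2 was at 1.34 to 2.91 normalized CPM.

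Promoter sequences, from 250 bases before to 50 after the start site, were found for 30 of the 40 members in RefSeq (GRCm38.p6). The 10 without one were Atp6v0a2, Atp6v0d2, Atp6v1b2, Atp6v1c1, Atp6v1g1, Atp6v1h, Ctsb, Ctse, Ctsh and Ctsw. Those found were searched for the letters CACGTG, which read the same on both strands. This is the core of the element through which TFEB and related factors are known to act on lysosomal genes. It was present in 8 of the 34 promoters of members (23.5%) and in 7.15% of all 32851 promoters of this length. The extended form GTCACGTG or CACGTGAC was in 4 of the 34 (11.8%) and in 2.25% of all. The Runx core TGTGGT or ACCACA, searched separately and free to share bases with the other motif, was in 8 of the 34 (23.5%) and in 16.8% of all. The genes with the core letters were Atp6v0b, Atp6v0d1, Atp6v0e and Atp6v1a among the V-ATPase genes and Ctsa, Ctsd, Ctsf and Ctsl among the cathepsins. Atp6v0b has a second core, 18 bases before the start, and Ctsd has one 245 bases before it, and these windows are not shown. Ctsa has cores 12 bases before the start and at base 6 after it. Windows of 30 bases that end before the start site are shown for 5 of the genes with the core letters, 1 window each (capitals mark these letters):
Atp6v0b, 36 bases before the start, chr4:117887348-117887377, minus strand: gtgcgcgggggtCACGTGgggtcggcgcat
Atp6v1a, 131 bases before the start, chr16:44139373-44139402, minus strand: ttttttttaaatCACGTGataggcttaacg
Ctsd, 98 bases before the start, chr7:142387908-142387937, minus strand: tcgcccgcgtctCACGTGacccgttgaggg
Ctsf, 79 bases before the start, chr19:4855074-4855103, plus strand: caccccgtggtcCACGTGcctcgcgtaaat
Ctsl, 236 bases before the start, chr13:64370739-64370768, minus strand: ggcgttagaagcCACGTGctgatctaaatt

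The Atp6v0b and Ctsd windows hold the extended form, as GTCACGTG and CACGTGAC. In Cre-only cells Atp6v0b rose, Atp6v1a did not pass the edgeR test and Ctsd, Ctsf and Ctsl fell at 3 h, as given below. Among the genes with a promoter sequence, the letters were thus found in genes of both directions. The rise of Atp6v0b depended on the model, as given below, and several genes that rose had no sequence to search. A match of letters is a description of the sequence and does not show binding.

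On activation most V-ATPase genes rose and most cathepsins fell, though some of the rises depended on the model, as given below. In Cre-only cells 9 of the 15 tested V-ATPase genes rose and 0 fell, whereas 10 of the 13 tested cathepsins fell and 1, Ctsz, rose. The other V-ATPase genes, the catalytic Atp6v1a among them, did not pass the test. Of all 13538 genes, 75% changed in this comparison (38.6% higher and 36.4% lower), so the share of members that changed, 20 of 28, was near the background, and each family is described here by its directions. The median log2 fold change was 0.47 over the V-ATPase genes, -1.44 over the cathepsins and 0.03 over all tested genes. Calls are those of the quasi-likelihood test in edgeR at an adjusted p under 0.05 (Benjamini-Hochberg, over the 13538 genes). A member that passed the filter through its resting level alone, such as Ctsf or Ctsk, could only be found lower. Both are counted among the 10 cathepsins that fell and in the median.

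**Figure D2:**
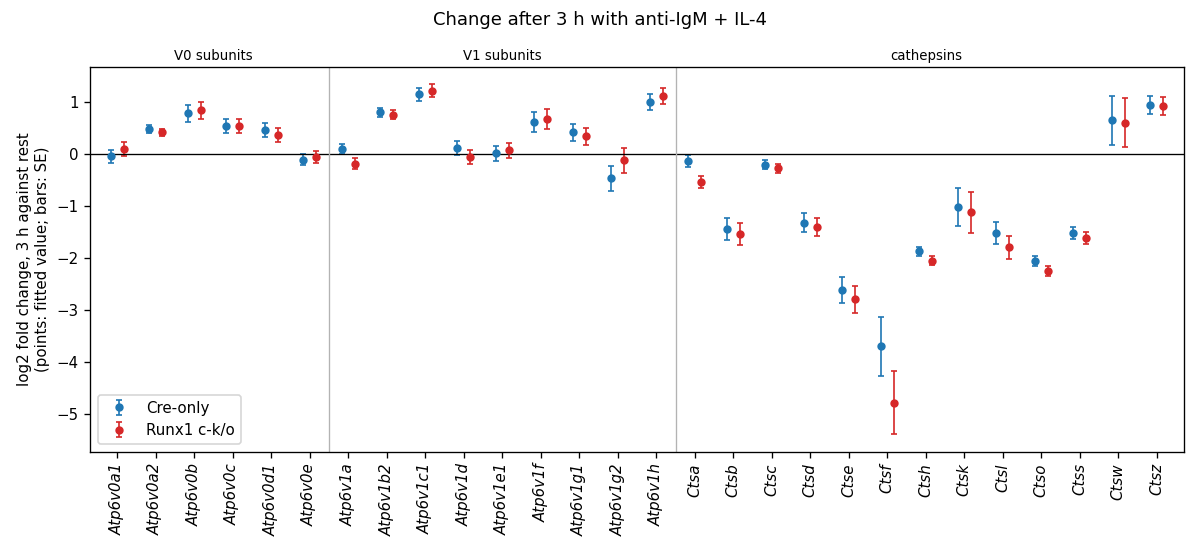
Fitted log2 fold change from rest to 3 h (points, with SE bars) of the 28 tested genes in Cre-only (blue) and c-k/o (red) cells, grouped as V0 subunits, V1 subunits and cathepsins. V-ATPase values lie between -0.46 and 1.22 and cathepsin values, apart from Ctsz and Ctsw, at or below -0.13.

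Among the V1 subunits, Atp6v1c1 and Atp6v1h rose most. Atp6v1c1, whose C subunit clamps V1 to V0, was at 45.1, 43.7 and 45.7 normalized CPM in the 3 resting Cre-only libraries and at 103, 104 and 91.6 at 3 h. The 2 groups did not overlap, and the gene rose 2.22-fold (log2 1.15, SE 0.123, edgeR adjusted p = 3.38e-06). Atp6v1b2, the B subunit of the catalytic head, was at 105, 100.3 and 103 at rest and at 181, 179 and 177 at 3 h, a 1.74-fold rise (SE 0.083 on the log2 scale, edgeR adjusted p = 2.43e-06). Its samples again lay fully apart. Atp6v1h, a regulatory subunit, rose 2.01-fold and Atp6v1f 1.54-fold (edgeR adjusted p = 6.12e-05 and 0.0101). Atp6v1g1, a stator subunit, rose by 0.42 on the log2 scale (edgeR adjusted p = 0.0351), but with the replicate number as a block within each genotype its adjusted p was 0.0631. Of 17 alternatives for this gene, 4 kept the call, 11 lost it and 2 reversed the direction. The catalytic subunit itself did not pass the test in Cre-only cells: Atp6v1a was at 65.4, 65.99 and 59.5 at rest and at 70.3, 65.4 and 68.7 at 3 h, and these ranges overlap (log2 fold change 0.10, edgeR adjusted p = 0.376). Atp6v1d, Atp6v1e1 and Atp6v1g2 had log2 fold changes of 0.12, 0.02 and -0.46 and did not pass either.

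Among the V0 subunits, the isoforms of subunit a, which forms the proton path, gave different calls. Atp6v0a2 was at 74.2, 73.7 and 73.3 normalized CPM in the resting Cre-only libraries and at 105, 105 and 100.2 at 3 h, a 1.40-fold rise without overlap (SE 0.0717 on the log2 scale, edgeR adjusted p = 5.14e-05). Its relative Atp6v0a1 was at 126, 122 and 118 at rest and at 129, 109.6 and 116 at 3 h, and the groups overlapped (log2 fold change -0.04, SE 0.128, edgeR adjusted p = 0.77). The a3 isoform, encoded by Tcirg1 and so outside the symbols used here, fell from 107 ± 5.22 to 27.5 ± 1.51 normalized CPM (log2 fold change -1.96, edgeR adjusted p = 1.48e-08). The difference among the 3 isoforms in their response was not tested as such. Atp6v0b and Atp6v0c, subunits of the proton-carrying ring, rose by 0.79 and 0.55 on the log2 scale and Atp6v0d1, which joins ring and stalk, by 0.47 (edgeR adjusted p = 0.000629, 0.00237 and 0.00774). Atp6v0e, a small membrane subunit, gave -0.11 and did not pass (edgeR adjusted p = 0.391). Summed over the 15 tested genes and the untested ones, V-ATPase transcripts were at 1079 ± 25.03 normalized CPM at rest and 1496 ± 36.6 at 3 h (SD, n = 3).

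Some of these rises depended on the model. The paper's own DESeq2 calls were made with RUV-seq, which adds estimated factors to the fit, and the number of factors is not stated. With 1 factor of unwanted variation (RUVs, a factor estimated from the differences among replicates) in the edgeR fit, 6 V-ATPase genes rose and 4 fell in Cre-only cells, against 62.9% of all genes changed, and the cathepsins gave 0 higher and 10 lower. This factor lay between 0.215 and 1.04 SD units in the 6 resting libraries and between -2 and -0.379 in the 6 at 3 h, so that it separated the 2 times as the activation itself does. Atp6v1c1, Atp6v1b2, Atp6v1h and Atp6v0a2 rose with this factor too (log2 0.68, 0.62, 0.36 and 0.57), while Atp6v1f and Atp6v0d1 turned to -0.23 and -0.10 and Ctsz was at 0.25 without passing the test.

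Cathepsin transcripts went the other way in 10 of 13 tested genes. Summed over the family they went from 2223 ± 45.5 to 1330 ± 15.5 normalized CPM, and without Ctsz from 2027 ± 49.2 to 951 ± 21.2. Ctso, a cysteine protease of little known function, was at 143, 144 and 146 in the resting Cre-only libraries and at 35.8, 33.4 and 34.5 at 3 h. It fell 4.18-fold (log2 fold change -2.06, SE 0.095, edgeR adjusted p = 1.2e-08), and its groups were far apart. Ctsh, an aminopeptidase, was at 292, 304 and 288 at rest and at 78.5, 78.7 and 84.6 at 3 h, a 3.66-fold fall (SE 0.0898, edgeR adjusted p = 1.4e-08). Ctss was at 477, 507 and 503 at rest and at 172, 174 and 174 at 3 h, 2.85-fold lower (SE 0.111, edgeR adjusted p = 1.47e-07). None of these 3 genes had overlapping groups in either genotype.

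The aspartic proteases fell as well. Ctse, an endosomal enzyme of immune cells, was at 30.1, 29.2 and 29.7 normalized CPM at rest and at 6.39, 3.53 and 4.40 at 3 h, 6.10-fold lower (SE 0.249, edgeR adjusted p = 1.24e-06). Ctsd, the main lysosomal aspartic protease, was at 180.0, 149 and 171 and then at 72.5, 62.5 and 65.99, 2.49-fold lower (SE 0.181, edgeR adjusted p = 2.89e-05). For both genes every 3-h sample lay below every resting one, in each genotype.

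Ctsb and Ctsl, endopeptidases that are abundant in macrophages, varied more between replicates than Ctsh and Ctso did. Ctsb was at 383, 324 and 414 normalized CPM at rest in Cre-only cells and at 157, 124 and 131 at 3 h, 2.72-fold lower (SE 0.21, edgeR adjusted p = 4.69e-05). Ctsl was at 18.0, 12.6 and 16.4 and then at 5.83, 5.75 and 4.84, 2.85-fold lower (SE 0.208, edgeR adjusted p = 2.87e-05). Ctsb overlaps Fdft1 on the other strand, whose counts ran from 168 to 3162 per library, and the strand setting of the counting is not given in the sources used here. Ctsk (-1.02) and Ctsc, or dipeptidyl peptidase I (-0.21), fell with adjusted p of 0.0224 and 0.045 by edgeR, and both lost the call with the replicate block (0.0573 and 0.107). Ctsc lost it in 9 of 17 alternatives. Ctsk, which had only 4 to 24 counts per library, lost it in 5 of 16 and reversed in 2. Ctsf had 36, 13 and 22 counts in the resting and 1, 2 and 2 in the 3-h Cre-only libraries, a ratio of summed levels of 14.1 with an exact 95% counting interval from 5.78 to 44.8. Ctsa, a carboxypeptidase that protects other hydrolases, and Ctsw, known from cytotoxic lymphocytes, did not pass the test (log2 -0.13 and 0.65, edgeR adjusted p = 0.338 and 0.225).

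Ctsz was the exception in the family. It was at 201, 198 and 191 normalized CPM in the resting Cre-only libraries and at 370.0, 377 and 392 at 3 h, a 1.93-fold rise (SE 0.171, edgeR adjusted p = 0.000277). In c-k/o cells it was at 221, 339 and 227 at rest and at 620.4, 451 and 428 at 3 h, a 1.91-fold rise (edgeR adjusted p = 0.000325). No 3-h library of either genotype lay below a resting one. The highest value in each c-k/o group was that of the library that stood apart, and Ctsz, with 1441 bases of exon, is one of the short genes. Th1l overlaps Ctsz on the other strand with 748 to 1299 counts per library, against 3087 to 9638 for Ctsz.

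**Figure D3:**
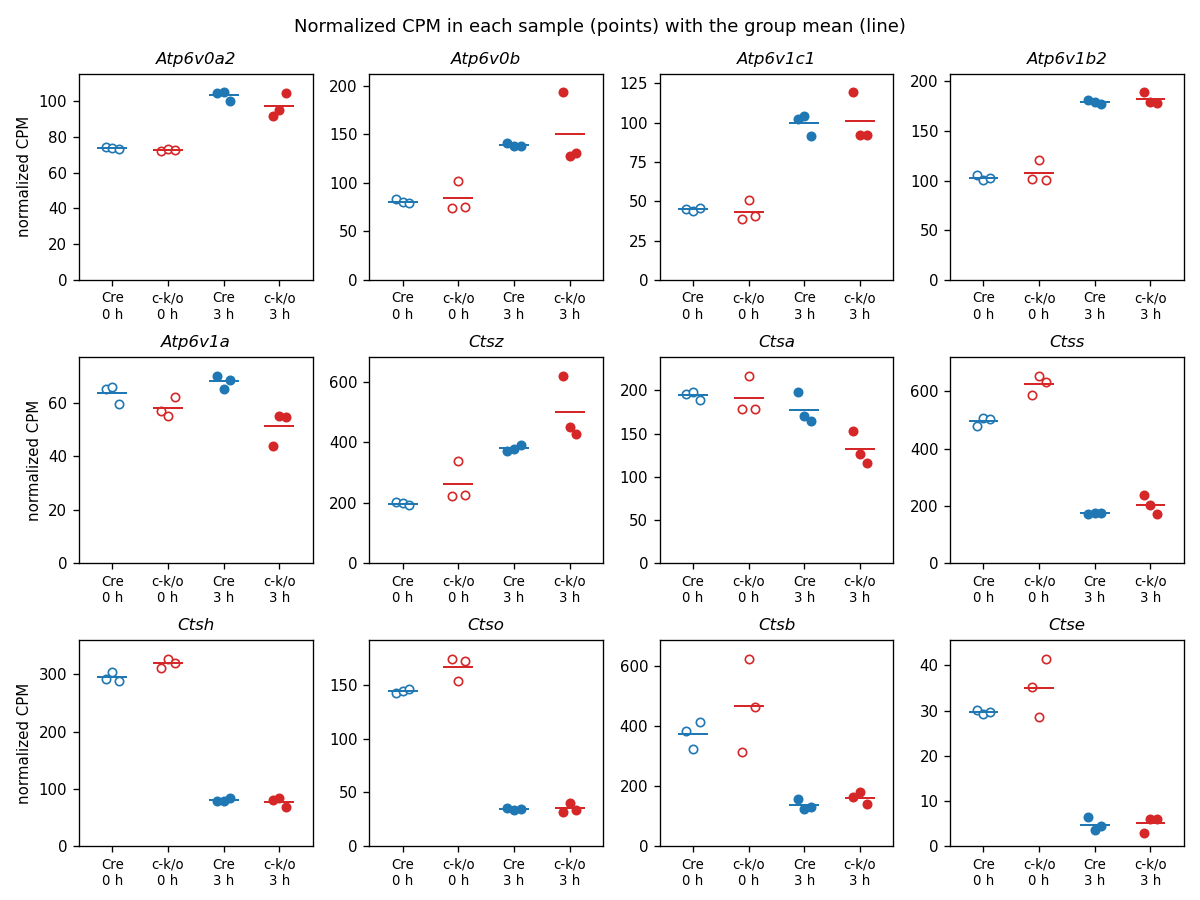
Normalized CPM of 12 members in each of the 12 samples (points; open at rest, filled at 3 h; blue Cre-only, red c-k/o) with group means as lines, on axes that start at 0. Ctso, Ctsh, Ctss and Ctse are lower in every 3-h sample than in any resting sample, and Ctsz, Atp6v1c1, Atp6v1b2 and Atp6v0a2 are higher.

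Macrophage and monocyte markers moved with the cathepsins. Of the 13 markers, 12 fell in both genotypes and 1, Vsig4, had at most 3 counts. Their sum was 573 to 736 normalized CPM in resting Cre-only cells, 27.1 to 38.8 at 3 h, 499 to 1089 in resting and 35.1 to 112 in 3-h c-k/o cells. Defining markers were clearly present at rest, with Csf1r at 139 to 283 and C1qc at 62.4 to 159.8 normalized CPM. Ctsb took the same order as this sum over the 6 resting libraries, from 315 where the sum was 499 to 625 where it was 1089, as did 0.62% of all tested genes. Ctsd was also highest in that last library, at 247, which is the resting c-k/o replicate 2 that stood apart. Among the other 5 resting libraries the sum reached 819, Ctsb 463 and Ctsd 180.0. Ctsh, Ctso and Ctsl showed no such order at rest. In the libraries where the sum was 499 and 1089, Ctsh was at 312 and 327, Ctso at 174 and 154 and Ctsl at 11.7 and 15.8. Ctsl was highest, at 18.0, in Cre-only replicate 1, where the sum was 633. The part of these markers' cells in the fall of the cathepsins was not tested, and in bulk RNA fewer cells of a type and less RNA per cell cannot be told apart. The B cell marker sum was between 4583 and 5414 normalized CPM at 3 h, and that of the 8 neutrophil markers was at most 7.52 in any library.

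**Figure D4:**
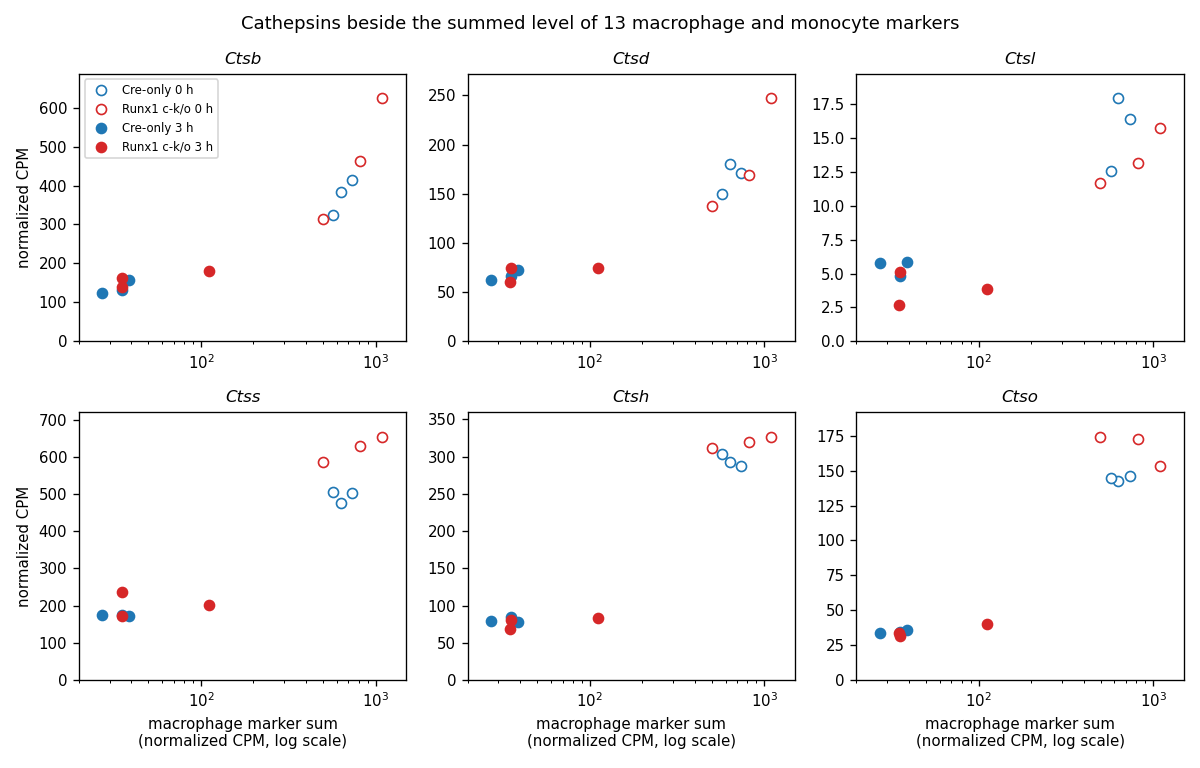
Normalized CPM of 6 cathepsins in each sample (linear axis from 0) against the summed level of 13 macrophage and monocyte markers (log axis), open points at rest and filled points at 3 h. Ctsb increases with the sum among the resting samples, from 315 to 625 in the c-k/o library that stood apart and to 463 in the others, whereas Ctsh stays between 288 and 327.

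In c-k/o cells the same comparison gave 8 V-ATPase genes higher and 0 lower, and 1 cathepsin higher and 11 lower, against 74.3% of all genes changed (37.7% higher and 36.6% lower). The medians were 0.37 for the V-ATPase genes, -1.54 for the cathepsins and 0.0046 for all tested genes. The 2 genotypes share no samples in these comparisons: 9 genes rose in both, 10 fell in both, Atp6v1g1 passed in Cre-only and Ctsa in c-k/o cells alone, and 7 passed in neither. Without the 2 libraries that stood apart, Atp6v1g1 was also called higher in c-k/o cells and Ctsa lower in Cre-only cells (edgeR adjusted p = 0.0115 and 0.0216). In that set Atp6v0e was called lower in Cre-only and c-k/o cells (log2 -0.15 and -0.18, edgeR adjusted p = 0.0175 and 0.0251). By DESeq2 with all samples, Atp6v1a was called lower in c-k/o cells (log2 -0.22, adjusted p = 0.0389). Atp6v1c1 rose 2.33-fold, Ctso fell 4.75-fold and Ctsh fell 4.14-fold in c-k/o cells. With the RUVs factor, 5 V-ATPase genes rose and 4 fell, and 10 cathepsins fell, against 61.5% of all genes. The difference between the genotypes in their response was tested by the interaction term, which called 0 of the 28 members (0.0813% of all genes) by edgeR and 0 by DESeq2. At an unadjusted p under 0.05 it held 1 member by edgeR, Ctsa (edgeR adjusted p = 0.885), against 5.07% of all genes, and 0 by DESeq2.

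Between the genotypes at rest, 0 of the 28 members were called by edgeR (1.49% of all genes) and 0 by DESeq2. At an unadjusted p under 0.05 each tool gave 4 members, which by edgeR were Ctss, Ctsz, Ctso and Atp6v0a1, against 11.1% of all genes. The groups did not overlap in 5 members, against 23.7% of all genes: Ctsh, Ctso, Ctss and Ctsz were higher and Atp6v0a1 lower in the knockout. Ctss was at 477, 507 and 503 normalized CPM in Cre-only and at 586, 655 and 631 in c-k/o cells, a log2 difference of 0.33 (SE 0.109, edgeR adjusted p = 0.227). Ctso was at 143, 144 and 146 against 174, 154 and 173 (log2 0.21, edgeR adjusted p = 0.416). For both genes every knockout sample lay above every control sample. Without the 2 libraries that stood apart, Ctss (0.30, edgeR adjusted p = 0.0161) and Ctso (0.27, adjusted p = 0.0206) were called, and 4.35% of all genes were. Ctsb, at 0.32 with all samples, was at 0.06 without these libraries.

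At 3 h, 1 of 28 members differed between the genotypes, against 2.77% of all genes. Atp6v1a (chromosome 16 of mm9, 44085515 to 44139818, minus strand) was at 70.3, 65.4 and 68.7 normalized CPM in Cre-only and at 44.0, 55.1 and 54.7 in c-k/o cells. The groups did not overlap, and the log2 difference was -0.41 (SE 0.0986, edgeR adjusted p = 0.0475). This call was lost in 11 of 16 alternatives, with adjusted p up to 0.231, including those that left out any 1 of the 3 Cre-only 3-h libraries or replicate 1 or 2 of the c-k/o 3-h cells. The lowest value was that of the library that stood apart, in which long genes were low, and Atp6v1a has 6044 bases of exon. Without the 2 such libraries it was -0.29 (edgeR adjusted p = 0.0134).

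Ctsa and Ctsz had non-overlapping groups at 3 h as well, so 3 members in all did, against 21.8% of all genes, and the same 3 members had an unadjusted edgeR p under 0.05, against 16.2%. Ctsa was at 198, 171 and 164.5 normalized CPM in Cre-only and at 153, 126 and 116 in c-k/o cells, a log2 difference of -0.43 (SE 0.12, edgeR adjusted p = 0.086). Without the 2 libraries it was -0.53 (edgeR adjusted p = 0.000171). Ctsz gave 0.40 with all libraries (edgeR adjusted p = 0.278) and 0.23 without the 2 (adjusted p = 0.0134). Ctsl, whose groups overlapped, gave -0.49 (adjusted p = 0.31) and -0.73 (adjusted p = 0.0432). In that smaller set, which left 2 samples in each c-k/o group, Atp6v1a, Ctsa, Ctsz and Ctsl were the 4 members called, against 6.65% of all genes.

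**Figure D5:**
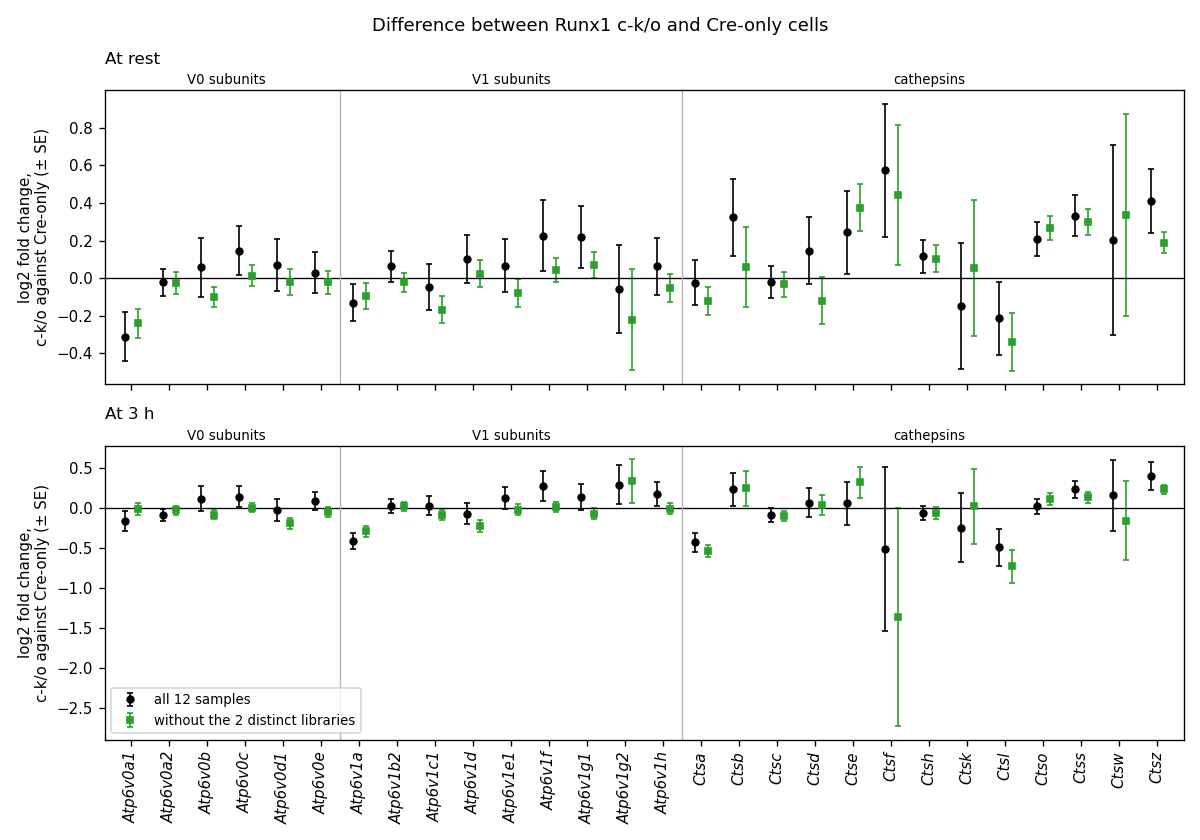
Log2 difference between c-k/o and Cre-only cells (points, with SE bars) of the 28 tested genes at rest (top) and at 3 h (bottom), with all 12 samples (black) and without the 2 libraries that stood apart (green). Among V-ATPase genes Atp6v1a is lowest at 3 h (-0.41 with all samples), and the Ctsb value at rest moves from 0.32 to 0.06.

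The counts of the related gene lists on activation stand against 38.6% of all genes higher and 36.4% lower in Cre-only cells, and 37.7% and 36.6% in c-k/o cells. Of 14 accessory and assembly genes of the pump 5 rose and 5 fell in Cre-only cells. Ccdc115 and Tmem199, which encode assembly factors of the V0 sector, went from 23.1 ± 1.73 to 91.8 ± 1.81 and from 18.8 ± 0.927 to 37.6 ± 1.80 normalized CPM, and Atp6ap2, an accessory subunit, from 79.8 ± 3.05 to 149 ± 2.84. Tcirg1 was the gene of this list that fell with the smallest p. In c-k/o cells 5 rose and 6 fell.

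Of 9 tested cathepsin inhibitors 4 rose and 4 fell in each genotype. Cst7, or cystatin F, had at most 0.062 normalized CPM at rest in Cre-only cells and 5.75 to 6.12 at 3 h. It was lower in 3-h c-k/o than in 3-h Cre-only cells (log2 -2.51, edgeR adjusted p = 0.000732). This made it 1 of 2 inhibitors, of the 9, called between the genotypes at 3 h, against 2.77% of all genes. Serpina3g, at 0.68 (edgeR adjusted p = 0.0391), was the other. Without the 2 libraries that stood apart these were -2.52 and 0.49 (edgeR adjusted p = 1.97e-05 and 0.0361). Serpinb9 rose and Serpinb6a and Serpinb1a, which encode inhibitors of serine and cysteine proteases, fell (log2 2.66, -1.97 and -1.14).

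Of 50 tested genes of other lysosomal hydrolases 10 rose and 32 fell in Cre-only cells, with a median log2 fold change of -0.76, and 8 rose and 32 fell in c-k/o cells. Gla and Gm2a, which act on glycolipids, and Acp5, an acid phosphatase that macrophages and osteoclasts express strongly, had the smallest p. They went from 173 ± 5.48 to 18.9 ± 1.29, from 198 ± 1.88 to 32.3 ± 1.05 and from 129.5 ± 8.05 to 7.02 ± 0.347 normalized CPM. Of the 36 membrane proteins 11 rose and 18 fell in Cre-only cells, and 9 rose and 19 fell in c-k/o cells. In Cre-only cells Slc17a5, the sialic acid exporter, rose 3.33 on the log2 scale, and Scarb2, Slc15a4 and Tpcn1 fell by 1.85, 1.57 and 2.62. The fall of the macrophage marker sum given above stands beside these lists too.

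Of 24 genes of sorting to lysosomes 11 rose and 5 fell in Cre-only cells, and 9 rose and 7 fell in c-k/o cells, where the median log2 fold change was -0.0040. In Cre-only cells Igf2r, the mannose 6-phosphate receptor that carries hydrolases to lysosomes, was at 43.0 ± 2.69 and then 277 ± 18.9 normalized CPM. Nagpa and Vps33a rose too, and Gga2, an adaptor of the same route, fell by 1.78 on the log2 scale. Of 25 regulators and mTORC1 docking genes 13 rose and 4 fell in Cre-only cells, and 12 rose and 5 fell in c-k/o cells. Tcfeb, the older symbol of Tfeb and the gene of the factor named above for CACGTG, went from 109 ± 2.32 to 16.6 ± 1.37 normalized CPM (edgeR adjusted p = 2.08e-08). Rragd, which encodes a GTPase that docks mTORC1 on lysosomes, rose from 7.67 ± 0.792 to 77.7 ± 6.08, and Mlst8 and Rragb rose as well. Of 10 class II processing partners 3 rose and 6 fell in Cre-only and 3 and 5 in c-k/o cells, with the subunits of H2-O (H2-Oa and H2-Ob, log2 -2.05 and -1.55) and of H2-M (H2-DMa and H2-DMb1, -0.93 and -0.74) among those that fell in Cre-only cells. Beside the inhibitors, the list genes called between the genotypes by edgeR were, at rest, Galc (log2 0.81) and Gpr137b (-0.63), and at 3 h Tpp1 (-0.39), Scpep1 (-0.39), Mcoln2 (0.56), Clcn7 (-0.34), Ctns (-0.63) and Gpr137b (-0.87), all hydrolases or membrane proteins of the lysosome. At rest these were 1 of 50 hydrolases and 1 of 36 membrane proteins, against 1.49% of all genes. At 3 h they were 2 of the 50 hydrolases, and 1 higher and 3 lower of the 36 membrane proteins, against 2.77%. Without the 2 libraries that stood apart each was called again, with 0.69 and -0.65 at rest and -0.30, -0.39, 0.58, -0.29, -0.50 and -0.70 at 3 h, in the same order. In that set 4.35% of all genes were called at rest and 6.65% at 3 h, and calls of other list genes are not given.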

How the data were processed

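RNA was poly(A)-selected from 12 samples of purified splenic B cells and made into stranded libraries from 500 ng each. The authors aligned the paired reads to mm9 with TopHat2 2.0.11 and Ensembl 66 genes (CASAVA 1.8.4 is also named in the submitters' processing notes), counted them with featureCounts and deposited raw counts per gene. The strand setting and the handling of reads with several alignments are not given in the sources used here. Groups came from the sample labels. Gene names, positions and exon lengths (all exons of a gene merged) came from the GENCODE vM1 annotation of mm9.

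Genes were kept by filterByExpr of edgeR 4.0.16 (minimum count 10) in R 4.3.3, TMM-normalized, and fitted over all 12 samples with 1 term per group by the robust quasi-likelihood method. There were 5 comparisons: genotype at rest, genotype at 3 h, time in each genotype, and their interaction. P-values were adjusted by Benjamini-Hochberg over the 13538 tested genes. Tables were made in Python 3.11.15 with pandas 2.3.3. The edgeR and DESeq2 models without the RUVs factor were run on simulated counts with planted differences between the genotypes at rest only. Activation, the interaction and the RUVs factor were not simulated. Floors and intervals cover counting error only. An exact permutation test on 1 gene, 3 samples against 3, has a smallest p of 0.1.

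Members and gene lists were chosen with earlier results of these data known. The naming rule was: per-sample values for members called between genotypes, for the 10 with the smallest p on activation in Cre-only cells and for those whose closest relative went the other way, all other members by name, and up to 4 genes with the smallest p per list. Per-sample values of Ctsa, Ctsf and, between genotypes, Ctss and Ctso, the markers Vsig4, Csf1r and C1qc, and the list genes called between genotypes were chosen after their values were seen.

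Same-numbered Cre-only libraries at 0 and 3 h deviated together (correlations of deviations from group means 0.275, 0.176 and 0.144), so a replicate block within each genotype was fitted and is given where it changed a call in Cre-only cells.

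Alternatives were DESeq2 size factors, total counts without TMM, no filter, 10 counts in every sample, DESeq2 1.42.0, 1 RUVs factor in edgeR or DESeq2, the replicate blocks, only the groups compared, and each sample left out. The authors' own gene calls came from DESeq2 and included RUV-seq factors, whose number and control genes are not given in the sources used here. Leaving out both distinct Runx1 c-k/o libraries was added after seeing the data.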

Additional observations from a re-analysis of the deposited data

How the results depend on the processing

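Over the single-gene calls on activation and Atp6v1a at 3 h, 41 in all, 618 of 692 alternative values kept direction and call, 58 kept the direction without the call, and 16 reversed, all 16 with the RUVs factor. In Cre-only cells these were, in edgeR, Atp6v0d1 (-0.10), Atp6v1f (-0.23), Atp6v1g1 (-0.30) and Ctsk (0.11), and in DESeq2 Atp6v0b (-0.031), Atp6v0c (-0.11), Atp6v0d1 (-0.21), Atp6v1f (-0.34), Atp6v1g1 (-0.41) and Ctsk (0.0063). In Runx1 c-k/o cells they were Atp6v0c (-0.024 and -0.088), Atp6v0d1 (-0.23 and -0.29) and Atp6v1f (-0.23 and -0.29) in edgeR and DESeq2. The split of members called on activation was 10 higher and 10 lower in Cre-only cells, and with this factor 6 and 14 in edgeR and 4 and 15 in DESeq2. In Runx1 c-k/o cells it was 9 and 11, and 5 and 14 by both tools. The factor separated the 2 times; the cause of the reversals was not tested. Total counts without TMM moved the median log2 fold change of all genes on activation to -0.10 (Cre-only; 9 members higher, 13 lower) and -0.11 (Runx1 c-k/o; 8 higher, 12 lower).

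Between genotypes at rest, 0 members were called, and 2 with the RUVs factor in edgeR (3.76% of all genes called), 3 in DESeq2 (4.44%) and 2 without both distinct libraries (4.35%). At 3 h, 1 member was called, and 0 with DESeq2 size factors, with no filter, with 10 counts in every sample, with the replicate block over all samples or with only the groups compared. It was 2 with the RUVs factor in edgeR (7.82% of all genes), 3 in DESeq2 (9.44%), 4 without both distinct libraries (6.65%), and 0 to 1 with each sample left out. The count of 1 by DESeq2 was Atp6v1a, and with total counts it was Ctsa. With each sample left out, 17 to 18 members were called on activation in Cre-only and 18 to 21 in Runx1 c-k/o cells. The replicate numbers did not pair across genotypes (correlations up to 0.068) or in Runx1 c-k/o cells (-0.254, -0.264 and 0.254), where the block within genotype called 19 members, and in Cre-only cells 17. Runx1 c-k/o libraries of unlike number did deviate together. The 2 distinct libraries had a correlation of 0.477, resting replicate 3 and 3-h replicate 2 of 0.309, and resting replicate 1 and 3-h replicate 3 of 0.268. The interaction called 0 members in every alternative run. At 3 replicates, differences well above the standard errors given could also stay uncalled. Ctsa was not called between genotypes at 3 h (log2 -0.43, SE 0.12, edgeR adjusted p = 0.086) or in the interaction (-0.41, SE 0.169, edgeR adjusted p = 0.885).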
